A study of Mus musculus with 3 samples.

Results

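The 10 genes described here encode the actin of dendritic spines, proteins that cut, bundle or anchor it, and proteins of the dendrite and spine whose mRNAs are known from dendrites. They are Actb, Actg1, Cfl1, Dbn1, Synpo, Ppp1r9a, Ppp1r9b, Itpka, Ddn and Psd, and they were found by matching the Ensembl identifiers of the count table, without version, to the gene symbols of GENCODE release M21. All 10 were matched, among 52636 genes in the table. RNA was sequenced from tdTomato-positive cells sorted from the hippocampus in 3 biological replicates of 1 group, CA1_Pyr_FACS. Each replicate held cells pooled from 2 to 4 male mice at postnatal day 28 to 32. Every mouse was Camk2a-Cre +/- and Ai14 +/- on a C57BL/6J background: the Camk2a promoter restricts Cre recombinase to part of the excitatory neurons of the forebrain, and the Ai14 allele makes the red fluorescent protein tdTomato once Cre has acted. Both alleles were present in all 3 replicates, and there was no other genotype, treatment or age and no unsorted tissue, so the values below are levels in the sorted cells and not changes or enrichments.

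Dendritic spines are the small protrusions that carry most excitatory synapses of pyramidal neurons, and their shape is set by filamentous actin. Actin monomers are added to and removed from filaments, cofilin severs old filaments, drebrin and other side-binding proteins hold them together, and scaffolds such as spinophilin tie phosphatases to them. A group of mRNAs, among them those of dendrin and of beta-actin, is transported into dendrites and can be translated there. In beta-actin mRNA the transport signal is a short stretch at the start of the 3′ UTR known as the zipcode, which is bound by the zipcode-binding protein. Localization was not measured here: the cells were freed from tissue with papain and passed through a sorter, a procedure in which dendritic processes are lost, and mRNA in lost processes is not in the counts.

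The first results turn on telling beta-actin from gamma-actin, so their sequences are shown first. Both coding sequences had 1128 bases and differed at 128 of them, an identity of 88.7%, and the longest run without a difference was 62 bases. The first 60 coding bases of each, 5′ to 3′, from the GENCODE M21 transcript sequences, are given with the 9 differing bases in capitals.
Actb coding bases 1 to 60: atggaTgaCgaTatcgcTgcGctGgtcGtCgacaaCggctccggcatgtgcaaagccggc
Actg1 coding bases 1 to 60: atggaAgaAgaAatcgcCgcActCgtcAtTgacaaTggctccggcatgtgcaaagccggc
The 3′ UTRs of the 2 transcripts shared no stretch of 31 bases. Bases 2 to 31 of the Actb 3′ UTR hold the zipcode pair of letters, CGGAC and ACACCC, shown in capitals.
Actb 3′ UTR bases 2 to 31: CGGACtgttactgagctgcgttttACACCC
Read on the transcript's own strand, CGGAC followed by ACACCC within 30 bases was in 22 of 12313 3′ UTRs of detected genes (0.179%), and Actb was the only one of the 10 genes among them. Since these letters are those of the known Actb element, its own match is no result. TTTTAT, the letters of the cytoplasmic polyadenylation element that is known from several dendritic mRNAs, were in 55.9% of the same 3′ UTRs and in those of 3 of the 10 genes, with 1 copy in Dbn1, 1 in Synpo and 4 in Ppp1r9a.

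The libraries held 48159841, 25686630 and 15833075 counts assigned to genes, a range of 3.04-fold. One 57-base gene, Gm23935, took between 32.7% and 48.3% of all TPM (a measure of transcript abundance, counts per length of exon scaled to a fixed sum), so TPM was taken over the 21883 nuclear protein-coding genes, which held 79.4% to 82.0% of counts. A gene was called detected with a CPM (counts scaled to the library total) of at least 1 in each replicate: 30.3% of all genes and 57% of nuclear protein-coding genes, 12471 genes, were detected. The labelled cell type was checked against marker genes. The 7 CA1 markers were each detected, at a median level of 249 ± 2.66 TPM (SD, n = 3), Fibcd1 being highest at 450 ± 56.5 TPM, and all 4 markers of excitatory neurons were, led by Nrgn. All 6 markers of dentate granule cells were detected too, with a median of 90.2 ± 2.34 TPM and C1ql2 at 621 ± 31.3 TPM, and all 4 of CA3, with Grik4 highest at 85.1 ± 2.26 TPM, so the values below cannot be assigned to CA1 cells alone. Markers of other cell types were present at medians below those of the CA1 and dentate granule lists, although some single genes stood high. The CA3 median, 34.4 ± 4.08 TPM, was itself below that of the oligodendrocyte list. The 8 oligodendrocyte genes had a median of 60.9 ± 11.7 TPM, above that of all detected genes, with Mbp highest at 369 ± 85.5 TPM, above Psd among the 10 genes described here. The 7 astrocyte genes had a median of 16.1 ± 4.87 TPM, with Slc1a2 at 139 ± 40.5 TPM, and the 6 microglial genes one of 10.8 ± 2.15 TPM, with C1qa at 13.7 ± 3.06 TPM. The 7 interneuron genes had a median of 1.52 ± 0.899 TPM, with Gad1 at 52.1 ± 8.27 TPM and no count of Slc32a1 or Vip in replicates 2 and 3. In such bulk samples fewer cells of a type and less RNA per cell cannot be told apart.

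All 10 genes were detected, against 57% of nuclear protein-coding genes, and 8 of the 10 ranked between 8 and 467 of the 12471 detected genes by mean TPM, with Synpo at 1530 and Ppp1r9a at 1914. Their median level was 639 TPM in replicate 1, 635 in replicate 2 and 558 in replicate 3, a mean of 610 ± 45.8 TPM (SD, n = 3), where the median detected gene had 37.5 ± 0.815 TPM. Together they made up 0.542%, 0.516% and 0.461% of all counts in the 3 replicates. From highest to lowest the order was Actb, Ddn, Itpka, Cfl1, Dbn1, Ppp1r9b, Actg1, Psd, Synpo and Ppp1r9a, a range from 2824 to 124 TPM. The 8 genes outside the lowest pair all stood above 300 TPM in every replicate, and the gap of more than 2-fold between Psd and Synpo was the widest step in the order.

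**Figure D1:**
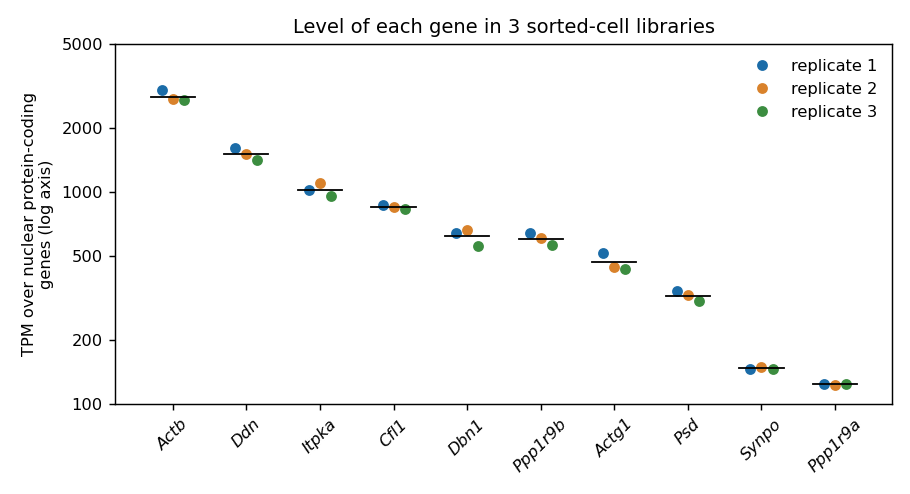
TPM over nuclear protein-coding genes (log axis) of the 10 genes in each of the 3 replicates (coloured points) with the mean of the 3 (black line). Actb stood near 2824 TPM and Synpo and Ppp1r9a near 147 and 124 TPM, and in most genes the point of replicate 3 was the lowest.

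Actb encodes beta-actin, the cytoplasmic actin isoform that is known to be concentrated at growing and motile edges. Its gene lies at chr5:142903115-142906754 on the minus strand (GRCm38/mm10). It had 3015, 2743 and 2714 TPM in replicates 1 to 3, a mean of 2824 ± 166 TPM (SD, n = 3), from 67363, 32463 and 18757 counts. Replicate 1 was the highest and replicates 2 and 3 were close to each other. Actb ranked 8th of the 12471 detected genes, and the detected protein-coding genes nearest to it in log2(TPM + 1) over the 3 replicates were Calm3 (Euclidean distance 0.08), one of the calmodulin genes, Gpm6a (0.24), which encodes a neuronal membrane glycoprotein, and Tmsb4x (0.25), which encodes thymosin beta 4, a protein that binds actin monomers. Calm3 had 2825 ± 175 TPM and Tmsb4x 2948 ± 158 TPM. Nearness in this measure covers level and replicate pattern over 3 samples of 1 group only.

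Actg1 encodes gamma-actin, the other cytoplasmic isoform, and lies at chr11:120345690-120348542 on the minus strand. It had 517, 444 and 434 TPM, a mean of 465 ± 45.5 TPM (SD, n = 3), from 11465, 5214 and 2975 counts. Replicate 1 was again the highest. In each replicate Actb was higher than Actg1, by 2.54, 2.62 and 2.64 on the log2(TPM + 1) scale, a mean of 2.60 ± 0.05, and the ratio of mean TPM was 6.07 (5.83 to 6.26 over replicates). The difference had 1 sign in 3 of 3 replicates, and its exact two-sided sign-flip permutation p was 0.25, the smallest that 3 replicates allow, with 0.25 after Benjamini-Hochberg adjustment over the 8 pairs of relatives compared. The other 4 actin genes, whose proteins are those of muscle, were low. Acta1 had 31.9 ± 2.52 TPM, Acta2 had 3.64, 3.56 and 27.4 TPM, and Actc1 and Actg2 were not detected, with 0 counts of Actc1 in replicates 2 and 3, which allow up to 0.117 and 0.189 CPM (3 counts of the total, counting error only). Actb took 84.7 ± 0.308% and Actg1 13.9 ± 0.495% of the summed TPM of the 6 actin genes.

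How much of the Actg1 signal the count table holds under that name is uncertain, because Actg1 has near copies. Of the 150-base stretches of the Actg1 transcript, the length of 1 read, 43.5% occurred identically in another gene, against 0% for Actb. Of 31-base stretches, 57.1% did for Actg1 and 35.3% for Actb. The protein-coding gene Lrrc58 shared 429 stretches of 31 bases with Actb and had 3.37% as many counts, which were not added. Of the 785 shared 150-base stretches of Actg1, the processed pseudogene Gm12715 held 708 and the processed pseudogene Gm8399 held 87. Gm12715 alone had 2670, 1127 and 694 counts. The 9 pseudogenes of the count table that share at least 100 stretches of 31 bases with Actg1, and most with it, together had 36.2%, 36.2% and 38.7% as many counts as Actg1 itself in the 3 replicates. With those counts added, Actg1 reached 637 ± 58.5 TPM (n = 3) and the log2 difference to Actb was 2.15 ± 0.05, still of 1 sign in 3 of 3 replicates. The pseudogenes assigned to Actb had 72 counts in all and left it at 2826 ± 165 TPM.

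Cfl1 encodes cofilin-1, which severs and depolymerizes actin filaments, and lies at chr19:5490455-5495201 on the plus strand. It had 872, 849 and 831 TPM, a mean of 851 ± 20.4 TPM (SD, n = 3), from 17119, 8831 and 5048 counts. The 3 replicates were within 1.05-fold of each other. Its muscle-type relative Cfl2 had 69.6, 60.6 and 81.4 TPM and destrin, Dstn, which encodes another depolymerizing protein, had 239, 218 and 251 TPM. Cfl1 was above Cfl2 by 3.58 ± 0.23 and above Dstn by 1.85 ± 0.12 on the log2(TPM + 1) scale, each in 3 of 3 replicates (exact sign-flip p = 0.25, adjusted 0.25). The ratios of mean TPM were 12.1 and 3.61. The 2 cofilin coding sequences had 501 bases each and differed at 143 of them. The pseudogene Gm6180 had 22.5% as many counts as Cfl1. It shared 285 stretches of 31 bases with the Cfl1 transcript but 0 of 150 bases, while 9.30% of the 150-base stretches of Cfl1 occurred in Snx32. With the Gm6180 counts added Cfl1 stood at 1044 ± 21.3 TPM, with a log2 difference of 3.88 to Cfl2 and 2.14 to Dstn. Snx32, a protein-coding gene, had 24.2% as many counts as Cfl1. Its counts were not added, and how reads were split between Cfl1 and Snx32 is not known.

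All 12 matched genes of the cofilin family and its regulators were detected. Their median was 120 ± 11.3 TPM, Cfl1 was the highest, and the lowest was Limk1 with 11.6 ± 1.76 TPM, which encodes a kinase that inactivates cofilin. Pdxp, which encodes a cofilin phosphatase, was listed but not matched to a symbol and was not analysed here.

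Dbn1 encodes drebrin, which binds the sides of actin filaments and is enriched in spines, and lies at chr13:55473429-55488111 on the minus strand. It had 639, 661 and 555 TPM, a mean of 619 ± 55.9 TPM (SD, n = 3), from 24071, 13180 and 6464 counts. Replicate 3 was the lowest. The drebrin-like gene Dbnl had 137, 132 and 133 TPM, and Dbn1 was higher by 2.20 ± 0.13 on the log2(TPM + 1) scale in 3 of 3 replicates (exact sign-flip p = 0.25, adjusted 0.25), a ratio of 4.63.

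Itpka encodes inositol-trisphosphate 3-kinase A, a spine protein that bundles actin filaments as well as phosphorylating the second messenger, and lies at chr2:119742337-119751263 on the plus strand. It had 1019, 1100 and 958 TPM, a mean of 1026 ± 71.5 TPM (SD, n = 3), from 15448, 8835 and 4491 counts. Replicate 2 was the highest and replicate 3 the lowest. Its relatives were far lower: Itpkb had 18.4 ± 0.763 TPM and Itpkc 4.44 ± 1.08 TPM. Itpka exceeded Itpkb by 5.73 ± 0.07 on the log2(TPM + 1) scale in 3 of 3 replicates (exact sign-flip p = 0.25, adjusted 0.25), a ratio of 55.8. With the length of 1 principal transcript per gene the log2 difference was 4.99, since that of Itpkb has 6235 bases and its merged exons 10463. Of 13 listed actin bundlers and crosslinkers, all detected, Itpka was the highest and Itpkc the lowest, and the list median was 184 ± 5.39 TPM.

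Ppp1r9b encodes spinophilin, a scaffold that binds filaments and brings protein phosphatase 1 into spines, and lies at chr11:94991035-95006899 on the plus strand. It had 639, 608 and 560 TPM, a mean of 602 ± 39.7 TPM (SD, n = 3), from 27072, 13660 and 7343 counts. Replicate 1 was the highest and replicate 3 the lowest. Ppp1r9a encodes neurabin, its relative with the same partner, and lies at chr6:4902917-5165661 on the plus strand. It had 124, 123 and 124 TPM, a mean of 124 ± 0.402 TPM (SD, n = 3), from 15001, 7903 and 4642 counts. Its replicates were within 1.01-fold of each other, the closest of the 10 genes. Ppp1r9b was above Ppp1r9a by 2.27 ± 0.10 on the log2(TPM + 1) scale in 3 of 3 replicates (exact sign-flip p = 0.25, adjusted 0.25), a ratio of 4.87. The raw counts of these genes differed less, because the merged exons of Ppp1r9a have 14531 bases and those of Ppp1r9b 5083. All 3 genes for catalytic subunits of protein phosphatase 1 were detected, and the median of the 5 genes of scaffold and phosphatase was 142 ± 14.6 TPM, with Ppp1r9b highest and Ppp1cc lowest at 101 ± 5.41 TPM.

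Ddn encodes dendrin, a protein of the postsynaptic density and dendrite, and lies at chr15:98803782-98807925 on the minus strand. It had 1614, 1519 and 1421 TPM, a mean of 1518 ± 96.5 TPM (SD, n = 3), from 50322, 25089 and 13704 counts. Replicate 1 was the highest and replicate 3 the lowest. Ddn ranked 2nd of the 10 genes and 33rd of the 12471 detected genes. The genes nearest to it over the 3 replicates were Ctxn1 (Euclidean distance 0.15), which encodes cortexin-1, Cplx2 (0.16), which encodes the presynaptic protein complexin-2, and Aldoa (0.18), which encodes a glycolytic aldolase. They had 1439 ± 133, 1594 ± 69.3 and 1430 ± 146 TPM. Of the Ddn exons, 4.52% overlap the antisense gene B130046B21Rik. That gene had 571 counts in the 3 replicates together, 0.641% of those of Ddn, and since the sources used here do not say whether counting used strand, reads in the overlap cannot be told apart.

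Psd encodes a guanine nucleotide exchange factor of the EFA6 family, which activates the small GTPase ARF6 at the membrane of dendrites and spines, and lies at chr19:46312087-46327156 on the minus strand. It had 341, 325 and 306 TPM, a mean of 324 ± 17.5 TPM (SD, n = 3), from 21743, 10970 and 6036 counts. Replicate 1 was the highest and replicate 3 the lowest. Its relative Psd3 had 78.5, 73.9 and 83.2 TPM, and Psd was higher by 2.03 ± 0.14 on the log2(TPM + 1) scale in 3 of 3 replicates (exact sign-flip p = 0.25, adjusted 0.25), a ratio of 4.13. This direction rests on the length used: with the length of 1 principal transcript per gene in place of the merged exons, the log2 difference was -0.33, since the principal transcript of Psd3 has 1739 bases and its merged exons 17632. Psd2 had 9.27 ± 1.77 TPM, Psd4 was not detected, with 0 counts in replicate 2, and Arf6, the target of these factors, had 41.0 ± 3.28 TPM.

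**Figure D2:**
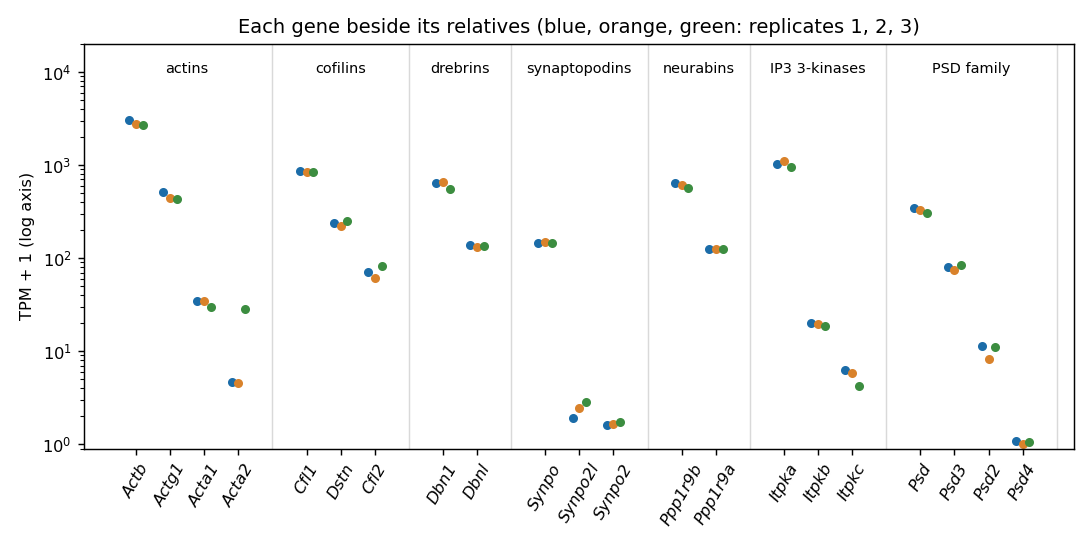
TPM + 1 (log axis) of each gene beside its relatives, 1 point per replicate. Actb, Cfl1, Dbn1, Synpo, Ppp1r9b, Itpka and Psd were the highest of their families in every replicate, and Acta2 stood apart in replicate 3 with 27.4 TPM.

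The other dendritic genes, listed apart from the actin lists and chosen for mRNAs known from dendrites, gave a scale for Ddn. All 8 were detected, with a median of 377 ± 10.8 TPM, the highest Nrgn at 6606 ± 378 TPM, which encodes the calmodulin-binding protein neurogranin, and the lowest Shank3 at 125 ± 7.64 TPM, which encodes a scaffold of the postsynaptic density. Camk2a, at 1620, 1605 and 1619 TPM, was the gene of this list closest in level to Ddn, and was picked out after its value was seen.

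**Figure D3:**
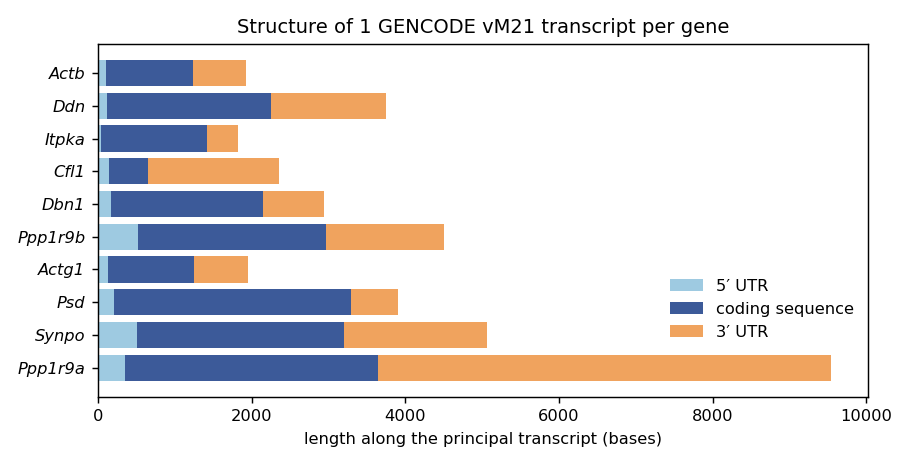
Lengths in bases of the 5′ UTR, coding sequence and 3′ UTR of the principal GENCODE M21 transcript of each gene, in order of level. The 3′ UTR ranged from 396 bases in Itpka to 5909 in Ppp1r9a.

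The principal transcripts of the 10 genes ranged from 1818 bases (Itpka) to 9547 bases (Ppp1r9a), with a median of 3342.5 bases against 3161.5 over detected genes. Coding sequence had a median of 2058 bases against 1428, and the 3′ UTR 1147 against 1088. GC content had a median of 58.3% against 50.4%, and ranged from 45.6% in Ppp1r9a to 62.3% in Ppp1r9b. The gene with the lowest level, Ppp1r9a, thus had the longest transcript, the longest 3′ UTR and the lowest GC content of the 10. TPM divides counts by exon length, so a low level and a long transcript are linked by construction. By CPM, Ppp1r9a took place 8 and Actg1 place 10. The transcript features are descriptions of annotation, with no test.

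Synpo encodes synaptopodin, an actin-binding protein of the spine apparatus, the stacked membrane found in large spines, and lies at chr18:60593973-60660142 on the minus strand. It had 146, 149 and 146 TPM, a mean of 147 ± 1.96 TPM (SD, n = 3), from 11599, 6278 and 3578 counts. The 3 replicates were within 1.02-fold of each other. Synpo2, which encodes a muscle relative, had 0.659 ± 0.0702 TPM, and Synpo was higher by 6.48 ± 0.07 on the log2(TPM + 1) scale in 3 of 3 replicates (exact sign-flip p = 0.25, adjusted 0.25), a ratio of 223. With a pseudocount of 0.1 in place of 1 the log2 difference was 7.60, since Synpo2 is below 1 TPM, and it was 4.54 for TMM-scaled counts per kb. Synpo2 passed the limit for detection, which is set on counts, while Synpo2l, at 1.41 ± 0.471 TPM, did not.

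Neighbours in the order of levels were compared within replicates, and called apart where the log2 difference had 1 sign in all 3 replicates and a mean of at least 2 SD. By that measure 8 of 9 neighbouring pairs were apart. The steps were 0.90 ± 0.04 from Actb to Ddn, 0.57 ± 0.10 from Ddn to Itpka, 0.27 ± 0.09 from Itpka to Cfl1 and 0.46 ± 0.11 from Cfl1 to Dbn1. Dbn1 and Ppp1r9b, drebrin and spinophilin, did not differ beyond their spread: the step was 0.04 ± 0.07, with Ppp1r9b the higher in replicate 3 (exact p = 0.75, adjusted 0.75). Below them the steps were 0.37 ± 0.08 to Actg1, 0.52 ± 0.08 to Psd, 1.14 ± 0.08 to Synpo and 0.25 ± 0.02 to Ppp1r9a. Each of the 8 had an exact sign-flip p of 0.25, adjusted 0.28 over the 9 pairs. With pseudogene counts added to Actg1 and Cfl1, 6 of 9 pairs were apart, Cfl1 moved above Itpka and Actg1 above Dbn1, and 5 of the 10 places changed.

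The counts without length gave another order, in which 7 of the 10 places differed. By CPM, Actg1 took place 10 and Itpka place 7, while Psd took place 5 in place of 8 and Ppp1r9b place 3 in place of 6. The genes that lost places have short exon sets, 2658 merged bases in Actg1 and 1818 in Itpka, and those that gained have longer ones, 7636 in Psd. Levels between these genes are therefore given per length throughout.

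The genes differed in how closely their replicates matched. The coefficient of variation (CV) of normalized counts over the 3 replicates ranged from 3.69% in Ppp1r9a and 4.35% in Synpo, through 6.08% in Cfl1, to 12.3% in Dbn1 and 13.1% in Actg1. Its median over the 10 genes was 9.40%, against 8.75% over detected genes, and 3 of the 10 lay under that median. Over the 15200 genes with at least 1 count in each replicate the median CV was 10.3%, above that of the 10 genes, and for TPM in place of normalized counts the median CV of the 10 genes was 6.12%. Counting error alone, at most 1.83% in the shallowest library, was below the CV of each of the 10 genes. Without replicate 3 the median CV of the 10 genes was 4.43%, and without replicate 2 it was 12.7%.

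Most of this spread had 1 direction. The TPM of 9 of the 10 genes was lowest in replicate 3, where 31.1% of detected genes were, and that of 6 of the 10 was highest in replicate 1, where 27.3% of detected genes were. The exception at the low end was Ppp1r9a, lowest in replicate 2. For Synpo the call rests on 145.5 TPM in replicate 3 against 145.9 in replicate 1. For Ppp1r9a it rests on 123.1 TPM in replicate 2 against 123.8 in replicate 1. Both gaps are smaller than the counting error in replicate 3, 1.67% for Synpo and 1.47% for Ppp1r9a. From replicate 1 to replicate 3 the median log2 TPM difference of the 10 genes was -0.15, with a range from -0.25 to 0.00, while the median over detected genes was 0.04. Actg1 and Dbn1 differed most between their highest and lowest replicates, each by 1.19-fold. Replicates of 1 group have no order, and no test was made of this difference.

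Vascular markers were higher in replicate 3. All 6 endothelial and all 6 mural markers were highest there: the summed endothelial level was 20.0, 31.2 and 92.9 TPM in the 3 replicates and the mural one 18.3, 23.8 and 91.2 TPM. Cldn5, a tight junction gene of brain endothelium, had 5.85, 10.6 and 49.4 TPM, Rgs5, a pericyte gene and the highest of the mural list, had 7.81, 8.42 and 29.5 TPM, and Acta2 of smooth muscle had 3.64, 3.56 and 27.4 TPM. No vascular marker was at 0 in any replicate. Astrocyte markers summed to 260, 162 and 327 TPM, and microglial markers to 48.4, 57.4 and 69.2 TPM, with 5 of 6 highest in replicate 3. Oligodendrocyte markers had no single direction. Their sum was lowest in replicate 3, at 821, 905 and 811 TPM, with 1 of 8 genes highest there. Their median was highest in replicate 3, at 66.5, 47.4 and 68.7 TPM, and Mbp, the highest of the list, was lowest in replicate 1. The sum for excitatory neurons was lowest in replicate 3, at 9892, 10476 and 9628 TPM, with 0 of 4 genes highest there. Most of it was Nrgn, with 6463, 7035 and 6321 TPM, and Slc17a7 was also lowest in replicate 3. Camk2a was lowest in replicate 2 and Neurod6 in replicate 1. Sums were also lowest in replicate 3 for CA1, at 1611, 1701 and 1549 TPM, and CA3, at 171, 170 and 158 TPM. Dentate granule markers summed to 1102, 1004 and 1046 TPM, lowest in replicate 2. Interneuron markers summed to 94.5, 72.5 and 115 TPM, with 4 of 7 genes highest in replicate 3. Replicate 3 was the shallowest library, and the part of depth, of vascular and glial RNA and of neuronal RNA in the lower level of the 9 genes was not tested.

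**Figure D4:**
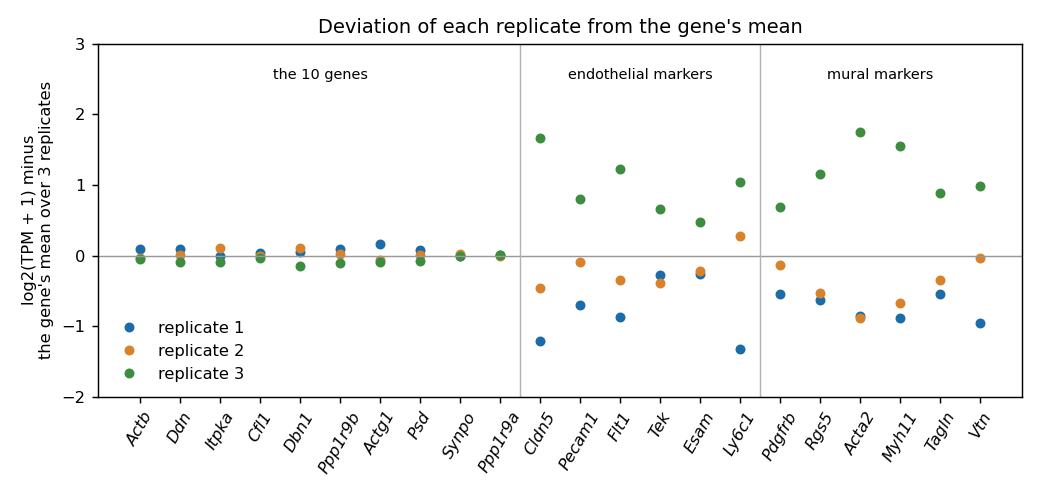
Deviation of log2(TPM + 1) in each replicate from the gene's mean, for the 10 genes, the endothelial markers and the mural markers. The 12 vascular markers were highest in replicate 3, and 9 of the 10 genes were lowest there, with deviations that are small on the same scale.

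The wider actin machinery was detected nearly whole. All 10 genes of the Arp2/3 complex, which starts branched filaments, were detected, with a median of 296 ± 4.35 TPM, Arpc2 highest at 796 ± 31.8 TPM and Arpc1b lowest at 5.74 ± 1.37 TPM. All 10 regulators of that complex in the WAVE and N-WASP groups were detected, with a median of 223 ± 16.5 TPM, Wasf1, the neuronal WAVE gene, highest at 925 ± 27.5 TPM, and Wasf2 lowest with 11.6, 13.1 and 11.4 TPM in the 3 replicates. Of 8 genes for monomer binding and capping, all detected, Tmsb4x was the highest and Eps8 the lowest at 2.60 ± 0.646 TPM, with a median of 222 ± 7.94 TPM. Tmsb4x was thus the only gene of the 11 pathway lists besides Nrgn with a mean above that of Actb.

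All 7 spine myosin genes were detected, with a median of 96.9 ± 8.59 TPM, Myl12b, a regulatory light chain, highest with 439, 421 and 437 TPM and Myo6 lowest at 18.6 ± 3.59 TPM. Of the 10 genes, Actb, Cfl1, Itpka, Synpo, Ppp1r9b and Psd were each the highest of the list that holds them, and Ppp1r9a was below the median of its own. These lists were written with earlier results of the same libraries known, and their counts are descriptions.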

How the data were processed

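Poly(A) RNA of sorted live tdTomato-positive cells gave paired-end libraries with reads of 150 bp. The authors deposited 1 table of raw counts per gene with the merged exon length, a total of 15833075 to 48159841 counts per replicate; the submitters' processing notes name STAR, featureCounts and GRCm38/mm10 without versions. Whether counting used strand, and how reads matching several places were handled, is not given in the sources used here. Symbols and types of 52489 of 52636 genes came from GENCODE M21.

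From the counts, TPM was computed over 21883 nuclear protein-coding genes and CPM over all genes, the CV from median-of-ratios normalized counts, and TMM factors with edgeR 4.0.16 as an alternative (Python 3.11.15, numpy 2.4.6, scipy 1.17.1, pandas 2.3.3, R 4.3.3). Scaling was tested on simulated data. Log2 differences used a pseudocount of 1, which understates differences of low genes. They were tested within replicates by an exact two-sided sign-flip permutation test, with Benjamini-Hochberg adjustment over 9 neighbouring or 8 family pairs. With 3 replicates the smallest p is 0.25, so no pair could pass 0.05. Sequence sharing was counted as identical stretches of 31 or 150 bases between M21 transcripts, and pseudogenes with at least 100 shared stretches of 31 bases were listed; pseudogenes of Cfl2 and Dstn were not searched.

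All 10 genes were named, with their relatives, the highest, lowest and undetected gene of each list, the 3 genes nearest Actb and Ddn, and the highest gene of each marker list; a few further genes were added after their values were seen. The 10 genes, the lists and the tests were chosen with earlier results of these data known. A further list of genes was fixed and is not reported here.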

Additional observations from a re-analysis of the deposited data

How the results depend on the processing

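Among 96 alternatives to 12 results, 66 of the 67 alternatives to the family pairs kept the direction. The exception was Psd against Psd3, whose log2 difference was -0.33 with principal transcript length, by the construction of the lengths. The median level of the 10 genes was 193 TPM over all genes, 104 CPM per kb with TMM, 2779 normalized counts per kb with median-of-ratios scaling (other units, not other levels), and 514 TPM with principal transcript length. That length also exchanged Cfl1 with Dbn1 and Actg1 with Psd in the order, and leaving out replicate 2 exchanged Dbn1 with Ppp1r9b. The median CV was 20.9% for TPM over all genes, where Gm23935 varied between libraries, and 4.43% to 12.7% when each replicate was left out. For TPM over protein-coding genes it was 6.12%. Adding pseudogene counts was chosen after seeing the data. No paired analysis was possible because there was 1 group, with no second group to share replicate numbers. The count of detected genes among the 10 did not move with any filter tried. The size of several differences moved: Synpo against Synpo2 ranged from 4.54 (TMM per kb) to 7.60 (pseudocount 0.1) on the log2 scale, and Itpka against Itpkb fell to 4.99 with principal transcript length, which also left 6 of 9 neighbouring pairs apart. Genes at 0 counts are known only up to the limit of 3 counts, and thinning to a common depth was not run.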
